A study of Mus musculus with 4 samples.

Results

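Nuclear genes for subunits of respiratory chain complexes I to IV were followed across 4 arrays of mouse aorta RNA. They comprise 28 genes counted in complex I, 4 in complex II, 5 in complex III, cytochrome c and 7 in complex IV, 45 genes chosen by name. All single-gene probe sets whose platform symbol is 1 of these names were taken, 95 of the 45101 on the array. They cover 43 genes, since neither Ndufs6 nor Cox7b had a single-gene probe set. After a filter on low signal, which Ndufb4 did not pass, 42 genes were compared among 11718 in all. The 4 groups have 1 array each: C57BL/6 apoE-/- mice on chow (B6 chow) or a Western diet (B6 Western), and Ath29 congenic mice on chow (Ath29 chow) or a Western diet (Ath29 Western). The B6 mice lack apolipoprotein E and are labelled with atherosclerosis. The Ath29 mice are labelled as resistant to it. A congenic strain carries a donor segment on another strain's background, here C57BL/6, and Ath29 names an atherosclerosis locus of chromosome 9. The apoE-/- genotype is written for the B6 mice only. The Apoe probe set, whose place relative to the deleted part is not given, read below the filter in both strains, 7.03 and 19.2 in B6 mice on chow and Western diet and 8.51 and 25.2 in Ath29 mice. All mice were weaned onto chow at 3 weeks of age, and those given the Western diet changed at 4 weeks and kept it for 2 weeks. The labels do not give the number of mice behind an array. With 1 array per group no difference has a replicate check and no p-value is given.

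The respiratory chain of the inner mitochondrial membrane passes electrons from NADH and succinate to oxygen and pumps protons, and ATP synthase uses the resulting gradient. Complex I (NADH dehydrogenase) and complex II (succinate dehydrogenase) reduce ubiquinone, complex III (cytochrome bc1) passes the electrons to cytochrome c, and complex IV (cytochrome c oxidase) reduces oxygen. Most subunits are encoded in the nucleus, and heart muscle and brown fat are rich in them. The aorta is mostly smooth muscle and is surrounded by fat.

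The arrays carried aortic signal together with that of neighbouring tissue. Acta2, the smooth muscle actin, read 11042 on chow and 10722 on Western diet in B6 mice, against 10495 and 10702 in Ath29 mice. Alb, the albumin of hepatocytes, read from 33.0 to 64.6 intensity units, while the extract protocol names liver and the source label aorta. The 13 hepatocyte markers with a probe set summed to 2807 (chow) and 5175 (Western diet) in B6 mice, against 4831 and 3168 in Ath29 mice. Of these, 6, 2, 3 and 6 lay at the intensity floor of 9.59. Among the 4 that passed the filter, the highest log2 value was 11.31, 12.24, 12.15 and 11.48 in the same order. Ucp1, the uncoupling protein that defines brown fat, read 3454 on chow and 5497 on Western diet in B6 mice, against 4508 and 3766 in Ath29 mice. Myh6, the cardiac myosin heavy chain, read 118 on chow and 2661 on Western diet in B6 mice, against 106 and 30.2 in Ath29 mice. The summed intensity of the 16 brown fat markers was 12613 (chow) and 25435 (Western diet) in B6 mice, against 19815 and 15689.7 in Ath29 mice. On any array 0 of them lay at the intensity floor of 9.59. They include Cox7a1 and Cox8b, complex IV forms that heart also has. Cox7a1 read 839 and 3301 in B6 mice, against 2409 and 1579 in Ath29 mice. Cox8b read 1872 and 4559, against 3393 and 2776. White fat markers summed to 41507 (chow) and 56746 (Western diet) in B6 mice, against 51937 and 45482 in Ath29 mice, with 1, 1, 1 and 0 of 16 at the floor. The summed intensity of the 16 heart markers was 1492 (chow) and 14978 (Western diet) in B6 mice, against 1139 and 1030.2 in Ath29 mice, with 1, 0, 2 and 2 of them at the floor. Acta1, the skeletal muscle actin, read at most 36.6. The 16 skeletal muscle markers summed to 842 (chow) and 1174 (Western diet) in B6 mice, against 713 and 502 in Ath29 mice. Of these, 4, 0, 5 and 6 lay at the floor. The ratio of 3' to middle actin signal, a measure of RNA integrity, was 5.10 (chow) and 5.63 (Western diet) in B6 mice, against 10.2 and 7.62 in Ath29 mice. The ratio of 3' to 5' actin was 24.4 and 25.4, against 31.5 and 28.5. For Gapdh it was lower in Ath29 mice, with 31.3 and 29.0 in B6 mice, against 22.8 and 28.0. On all 4 arrays these ratios were far above 1, with much more signal at the 3' end of both transcripts. The effect of this on the differences below was not tested. In these bulk RNAs, fewer cells of a type and less RNA per cell cannot be told apart.

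Respiratory chain transcripts were highest in B6 mice on Western diet and, for most genes, lowest in B6 mice on chow, with the Ath29 arrays between them. Over the 42 genes the median of log2 intensity was 11.63 (chow) and 12.16 (Western diet) in B6 mice, against 12.02 and 11.71 in Ath29 mice. Of the 42, 40 were highest in B6 Western, against 26.5% of all genes compared, and 32 were lowest in B6 chow, against 22.6%. Orders here use the log2 values after the arrays were shifted to a common median. Among the other 10, 9 were lowest in Ath29 Western, against 18.2%. In the intensities as deposited, which are those printed, 36 genes were lowest in B6 chow and 5 in Ath29 Western. On either scale 2 genes of the 42 were highest in Ath29 chow, against 17.6%. The full order, with B6 Western first, then Ath29 mice on chow, Ath29 mice on Western diet and last B6 chow, was found in 30 of 42 genes and in 7.52% of all genes. Brown fat and white fat markers followed the same order in their summed intensity, while heart markers were high only in B6 Western among the 4 arrays. The hepatocyte sum also had that order, but its brightest marker made up most of it on each array. Median differences of the 4 hepatocyte markers compared were 0.55 on chow and -0.07 on Western diet between strains. Between diets they were 0.57 in B6 and -0.02 in Ath29 mice. Alb was highest in Ath29 chow (64.6). Smooth muscle markers had their highest sum in B6 chow and their lowest in Ath29 chow. The part of these tissues in the respiratory chain values was not tested.

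**Figure D1:**
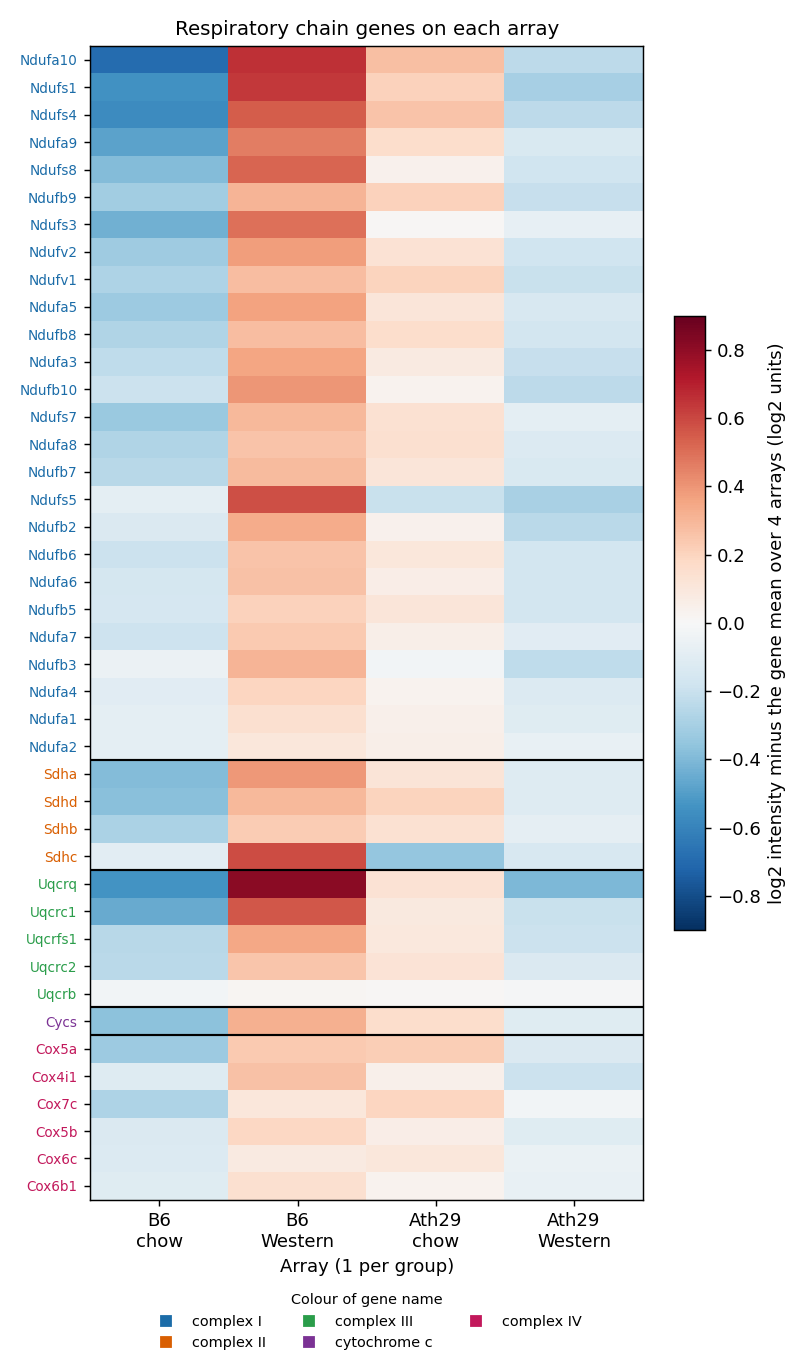
Gene-centred log2 intensity of the 42 respiratory chain genes (rows, grouped by complex and ordered by strain by diet difference) on the 4 arrays (columns, 1 array per group). Red is above and blue below the gene's mean over the 4 arrays. The B6 Western column is the highest for 40 genes and the B6 chow column the lowest for 32.

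The comparison of strains asks how the Ath29 segment goes with transcript levels on each diet. On chow the genes read higher in Ath29 than in B6 mice, with a median log2 difference of 0.39 (range -0.26 to 0.97) against -0.08 over all genes. The difference was above 0 in 40 of 42 genes, against 41.0% of all genes. The exceptions were Ndufs5 and Sdhc. At least 1.5-fold higher were 5 of 42, or 11.9%, near the 7.23% of all genes, and 0 were at least 1.5-fold lower, against 9.68%. With quantile normalization in place of a common median, 8 of 42 were at least 1.5-fold higher, and the shares of all genes were 8.93% higher and 7.44% lower. With a common 75th percentile 9 of 42 were, against 8.96% of all genes. The median difference was 0.75 for brown fat, 0.58 for white fat and -0.36 for heart markers.

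On Western diet the same genes read lower in Ath29 mice, all 42 of them, against 49.4% of all genes. The median difference was -0.45 (range -1.21 to -0.03), against 0.00 over all genes. At least 1.5-fold lower were 10 of 42, against 7.89% of all genes, and 0 were at least 1.5-fold higher, against 5.61%. Heart markers had a median of -3.75 in this comparison, brown fat markers of -0.88 and white fat markers of -0.65. Opposite signs, above 0 on chow and below 0 on Western diet, were found in 40 of 42 genes and in 22.5% of all genes. At least 1.5-fold in both directions were Ndufs1, Ndufs4, Ndufa9, Ndufa10 and Uqcrq, 5 of 42 against 2.53% of all genes. Across the 42 genes the strain differences on chow and on Western diet, which use different arrays, had a Pearson r of -0.38 and a Spearman rho of -0.37, against -0.15 and -0.15 across all 11718 genes. Genes on 1 array share its RNA and are not independent, so these values are a description.

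**Figure D2:**
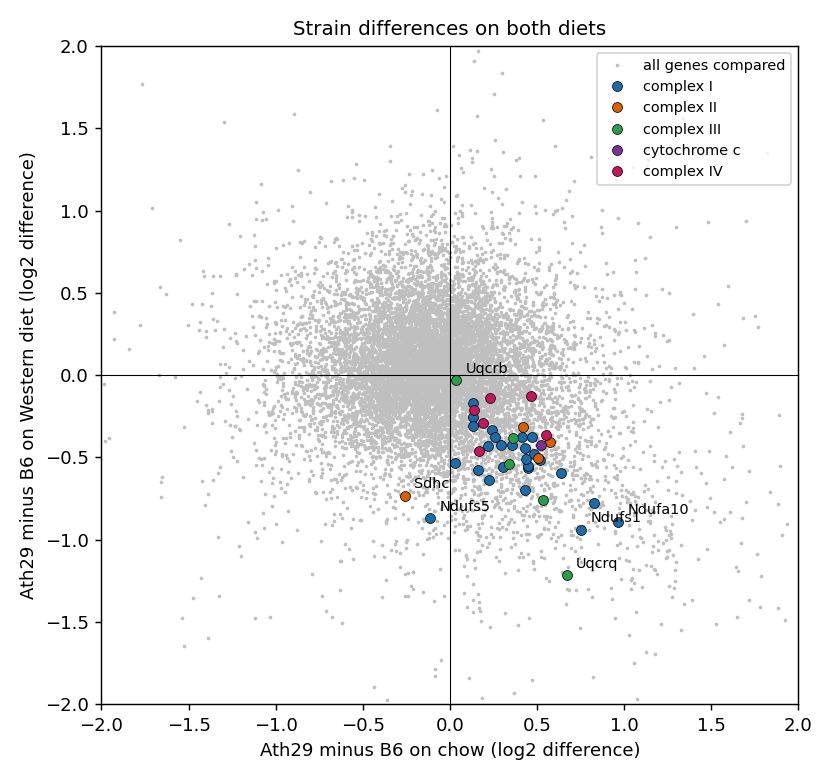
Log2 difference between Ath29 and B6 mice on chow (horizontal) and on Western diet (vertical) for all genes compared (grey) and for the 42 respiratory chain genes (coloured by complex). Of the 42, 40 lie at the lower right, above 0 on chow and below 0 on Western diet. The axes end at 2 log2 units, which leaves out 64 grey genes.

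The comparison of diets asks how 2 weeks of Western diet go with the same transcripts in each strain. In B6 mice all 42 genes read higher on Western diet, against 43.4% of all genes, with a median log2 difference of 0.56 (range 0.05 to 1.35) against -0.06. At least 1.5-fold higher were 19 of 42, against 9.96% of all genes, and at least 2-fold higher 5, against 4.11%, while 0 were at least 1.5-fold lower, against 7.13%. In Ath29 mice 41 of 42 read lower on Western diet, against 43.8% of all genes, with a median of -0.25 (range -0.54 to 0.21) against 0.04. None of the 42 was 1.5-fold different in Ath29 mice in either direction, where 6.03% of all genes were higher by that much and 4.35% were lower. The single gene above 0 was Sdhc (0.21), of which a dimmer probe set gave -0.15. Higher on Western diet in B6 mice and lower in Ath29 mice were thus 41 of 42 genes, against 24.0% of all genes. The diet difference in Ath29 minus that in B6, called the strain by diet difference here, was below 0 in all 42 genes, against 41.2% of all genes. Its median was -0.82, against 0.11 over all genes, and 32 of 42 were beyond 1.5-fold below 0, against 14.1%, 11 of them beyond 2-fold, against 6.76%. This quantity, both strain differences and both diet differences draw on the same 4 arrays and are no independent evidence of each other.

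The core subunits of complex I carry the flavin and iron-sulfur clusters along which electrons run from NADH to ubiquinone. Their median log2 differences between Ath29 and B6 mice were 0.46 on chow and -0.56 on Western diet. Ndufs1, the largest of them and a carrier of iron-sulfur clusters, read 406 on chow and 952 on Western diet in B6 mice, against 707 and 494 in Ath29 mice. On chow it was 1.69-fold higher in Ath29 than in B6 mice, and with Western diet 1.92-fold lower. Both Ath29 values lay between the B6 values. Ndufv1, which binds the flavin that accepts electrons from NADH, read 3152 on chow and 4781 on Western diet in B6 mice, against 4536 and 3413 in Ath29 mice. Its neighbour in the NADH-oxidising end, the iron-sulfur protein Ndufv2, read 3794, 6324, 5344 and 4291 in the same order of arrays. B6 Western was the highest array and B6 chow the lowest for both. Ndufs7, which holds the last iron-sulfur cluster before ubiquinone, read 3101, 4923, 4436 and 3769, and Ndufs8, also an iron-sulfur protein, 2125, 4116, 2952 and 2520.5. Ndufs3, a core subunit without a cluster, read 976, 1911, 1373 and 1285. All 6 core subunits had the same order of arrays, and 5 of 6 were at least 1.5-fold higher on Western diet than on chow in B6 mice, against 9.96% of all genes. The sixth, Ndufv1, had a log2 difference of 0.56 by its brightest probe set, while dimmer ones gave 0.70 and 1.29.

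Accessory subunits surround the core of complex I and serve its assembly and stability. The 10 Ndufa genes had median strain differences of 0.28 on chow and -0.40 on Western diet. The 8 Ndufb genes compared, whose products belong to the membrane arm, had medians of 0.28 and -0.48. Ndufa10, a membrane arm subunit, read 817 on chow and 2143 on Western diet in B6 mice, against 1647 and 1150.3 in Ath29 mice. Compared with B6 mice, Ath29 mice had 1.96-fold more on chow, while the Western diet value was 1.85-fold lower. Ndufs4, a subunit of the NADH-oxidising end whose loss in mice causes a Leigh-like brain disease, read 1240.1 on chow and 2760.4 on Western diet in B6 mice, against 2268 and 1599 in Ath29 mice. Ndufa9, which lies where the arms of the complex meet, read 1154, 2280.3, 1850.1 and 1499.8 in that order. B6 Western was highest and B6 chow lowest for all 3. Ndufb9, of the membrane arm, read 4974, 7855, 7348 and 5468, and Ndufa5, of the matrix arm, 3113, 5181, 4349.7 and 3622, with strain by diet differences of -1.03 and -0.95 log2 units.

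Other accessory genes varied by less between the arrays. Ndufa2 read 4361 on chow and 5111 on Western diet in B6 mice, against 4938 and 4512 in Ath29 mice, with a strain by diet difference of -0.31, the least negative of complex I. Ndufa1, an X-linked gene whose product the complex needs for its assembly, read 7527, 9105, 8524 and 7592 in the same order, with -0.39. Ndufa4, named for complex I and since placed in complex IV, read 4457, 5609.5, 5033 and 4497, with -0.44. It is counted in complex I here, and the medians of the complexes with it moved were not computed. These 3 genes were all highest in B6 Western, and Ndufa1 and Ndufa4 had values in Ath29 Western and B6 chow that were nearly the same. Ndufb3 read 3400.2, 4487, 3581 and 3080.2 and Ndufa7 2711, 3735, 3309 and 2955, both with -0.57 log2 units. Ndufb3 differed little between strains on chow (0.03) and by -0.54 on Western diet. Ndufs5, an accessory subunit of the membrane arm, stood apart on chow. It read 329.7 on chow and 537 on Western diet in B6 mice, against 315 and 292 in Ath29 mice, so that both Ath29 arrays lay below both B6 arrays. The only single-gene probe set of Ndufb4 read at most 23.7 and was not compared.

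Complex II is also an enzyme of the citric acid cycle and has no subunit encoded in mitochondrial DNA. Sdha, its flavoprotein, read 2640.4 on chow and 4654 on Western diet in B6 mice, against 3869 and 3267 in Ath29 mice. The iron-sulfur subunit Sdhb read 3281, 4832, 4526 and 3869 in the same order, and Sdhd, a membrane anchor, 2682, 4384, 4115 and 3291. For these 3 genes the arrays had the order of the complex I core. Sdhc, the other membrane anchor, read 311 on chow and 514 on Western diet in B6 mice, against 268 and 308 in Ath29 mice. It was highest in B6 Western like the others, but its lowest array was Ath29 chow. In Ath29 minus B6 mice its log2 difference was -0.26 on chow and -0.73 on Western diet. A dimmer Sdhc probe set gave 0.32 and -0.11, so the sign on chow depended on the probe set.

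Complex III and cytochrome c join the ubiquinone pool to complex IV. Uqcrq, a small subunit of complex III, read 1184 on chow and 3108 on Western diet in B6 mice, against 1947 and 1333 in Ath29 mice. By this probe set its strain by diet difference was -1.89 log2 units, the most negative of the 42 genes, with a chow value 1.6-fold higher and a Western diet value 2.32-fold lower in Ath29 mice. Of 3 dimmer Uqcrq probe sets, one gave -1.96, while those reading at most 43.6 gave 0.46 and -0.86. The core protein Uqcrc1 read 968 on chow and 2009 on Western diet in B6 mice, against 1447 and 1179.7 in Ath29 mice. Its partner Uqcrc2 read 5823, 8425, 7707 and 6437 in the same order, and Uqcrfs1, the Rieske iron-sulfur protein, 2425, 3766, 3166 and 2573. All of these had their highest value in B6 Western and their lowest in B6 chow. Uqcrb, another small subunit, read 12632 on chow and 13421 on Western diet in B6 mice, against 13364 and 13086 in Ath29 mice, the highest intensity of any probe set outside the controls on 3 of the 4 arrays, and its differences were 0.04 and -0.03 between strains. A dimmer Uqcrb probe set read 2103, 3516, 2564 and 2371, with differences of 0.24 on chow and -0.56 on Western diet. Cycs, the somatic cytochrome c, read 5969 on chow and 9864 on Western diet in B6 mice, against 8856 and 7310.5 in Ath29 mice. It was 1.61-fold higher on Western diet in B6 mice and 1.2-fold lower in Ath29 mice.

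Complex IV had the smallest medians of the 4 complexes in each comparison. Its strain differences were 0.21 on chow and -0.25 on Western diet. Complex I had 0.39 and -0.51, complex II 0.46 and -0.45, and complex III 0.36 and -0.54. The strain by diet differences of its 6 genes, from -0.92 to -0.35, lay within the range of complex I, from -1.86 to -0.31. Cox4i1, the common form of subunit 4, read 5162 on chow and 6939 on Western diet in B6 mice, against 5975 and 5009 in Ath29 mice. Cox5a, which faces the matrix, read 4801 on chow and 7298 on Western diet in B6 mice, against 7254 and 5632 in Ath29 mice. The Ath29 chow value of Cox5a lay just under its B6 Western value. Cox5b, a zinc-binding subunit, read 6895, 8837, 8110.0 and 7188 in that order, and Cox6b1, which faces the intermembrane space, 8864, 10892, 10078 and 9355. Both were highest in B6 Western and lowest in B6 chow. Cox6c read 5516, 6539, 6663 and 5901 and Cox7c 54.5, 73.0, 77.7 and 66.4, the only members with their highest value in Ath29 chow. A dimmer Cox6c probe set read 3535, 5330, 4388 and 3292, highest in B6 Western, so this order of Cox6c depended on the probe set. Cox7c had the dimmest probe set of the 42 genes, while 35 of the 42 exceeded 1000 intensity units on all arrays. The share of all genes above that level was not computed. The members are bright as a list, with a median log2 intensity in B6 chow of 11.63, against 7.60 over all genes.

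**Figure D3:**
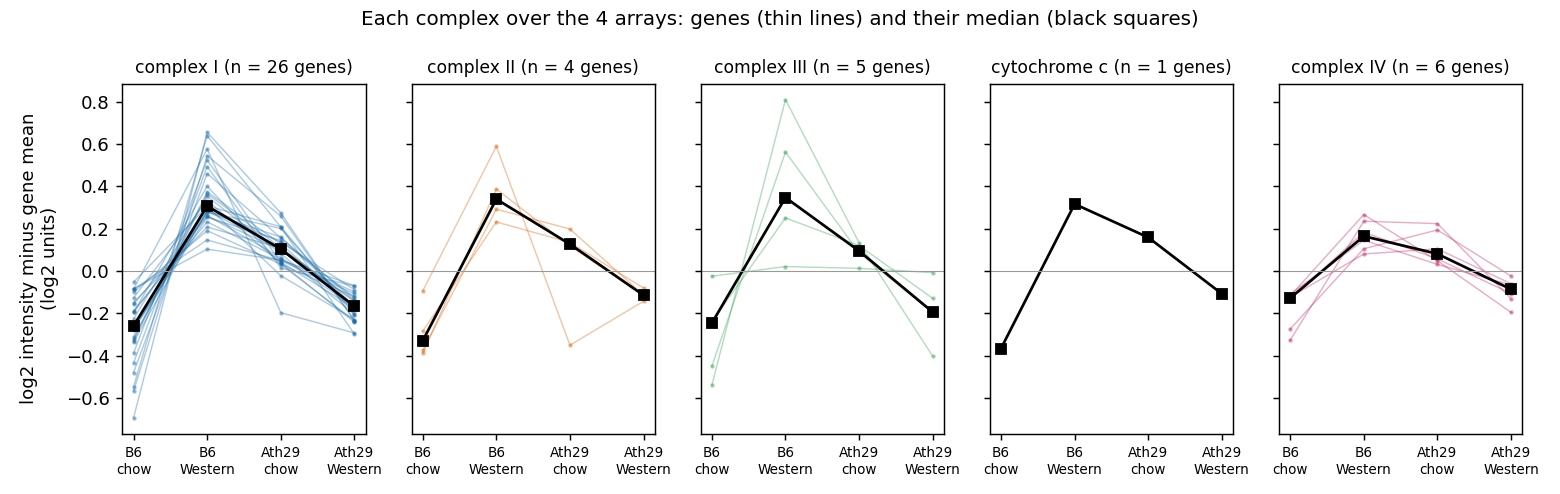
Gene-centred log2 intensity (vertical) of the genes of each complex on the 4 arrays (horizontal). Thin lines are genes and black squares their median. Every complex has its highest median in B6 Western and its lowest in B6 chow, and complex IV spans the smallest range.

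The size of these values depended on the probe set. Of the 42 genes, 26 had over 1 single-gene probe set that passed the filter. Between the brightest and the dimmest, the strain by diet difference had the same sign in all 26 genes, against 61.0% of 4663 genes of the whole series with over 1 passing probe set. On Western diet the strain difference was larger in the dimmest than in the brightest probe set for 22 of 26 genes, against 62.0% of the 4663. On chow this was so for 12 of 26, against 59.3%. In B6 mice all 26 had the same sign of diet difference in both probe sets, against 62.9%, and in Ath29 mice 23, against 57.3%. The sign of the strain difference on chow was the same in 23 of 26, against 57.6%. Ndufa3, Ndufb8 and Sdhc had opposite signs there. Of all 86 passing probe sets of the 42 genes, 85 had a strain by diet difference below 0, and the exception was that of Uqcrq at 0.46. Over all genes compared, each read from its brightest probe set, the share below 0 was 41.2%. The share over all passing probe sets was not computed, and the 86 are repeat readings of the same 42 genes. Probe sets of the same gene read the same RNA on the same arrays, so the 86 are not independent. For Cycs the Western difference was -0.42 by the brightest probe set and -1.20 by the dimmest. For Cox6c it was -0.14 and -0.69, and for Cox5a -0.37 and -0.93. Read from the dimmest passing probe sets, the strain by diet median of complex IV was -0.82, beside -0.86 in complex I, in place of -0.54 and -0.86. By this choice complex IV still had the smallest strain by diet median, beside -0.88 in complex III and a more negative one in complex II. It was no longer the smallest in the other comparisons, such as 0.36 against 0.22 in complex I on chow and -0.55 against -0.47 in complex II between strains on Western diet. The Western difference of Ndufs4 also rested on the probe set. Its dimmest probe set, reading from 40.5 to 57.6, gave 0.23 on Western diet in place of -0.78, and an intermediate one -1.38.

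**Figure D4:**
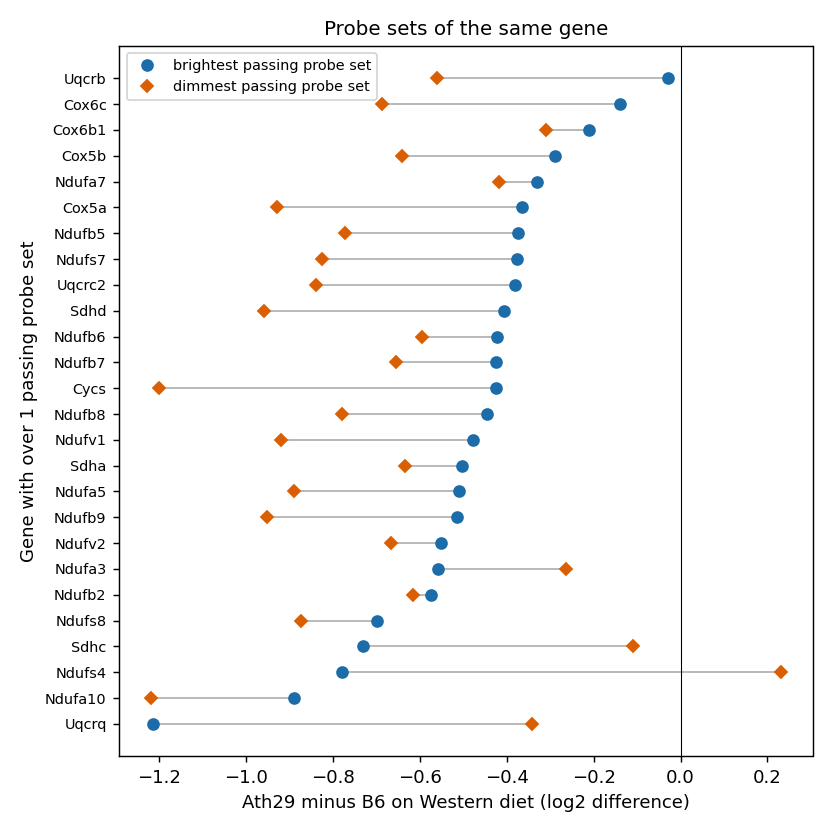
Log2 difference between Ath29 and B6 mice on Western diet (horizontal) for the 26 genes with over 1 passing probe set (rows), read from the brightest (circles) and the dimmest (diamonds) probe set. The diamond lies farther from 0 for 22 of 26 genes, and that of Ndufs4 lies above 0.

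Tissue forms of complex IV subunits, which are not among the 42 genes, were also highest in B6 Western. Cox7a1, the form of subunit 7a of heart, skeletal muscle and brown fat, read 839 on chow and 3301 on Western diet in B6 mice, against 2409 and 1579 in Ath29 mice. Cox8b, a form of subunit 8 in the same tissues, read 1872 on chow and 4559 on Western diet in B6 mice, against 3393 and 2776 in Ath29 mice. Cox6a2, the form of subunit 6a of heart and skeletal muscle, read 44.7 on chow and 297 on Western diet in B6 mice, against 87.3 and 40.8 in Ath29 mice. In Ath29 minus B6 mice Cox7a1 gave 1.48 and -1.06 on chow and Western diet, and Cox6a2 0.92 and -2.86. The widely expressed counterparts Cox7a2 and Cox6a1 gave 0.18 and -0.29, and 0.02 and -0.10. Cox8b gave 0.81 and -0.71, beside 0.27 and -1.10 for the widely expressed Cox8a. Cox4i2 and Cox6b2, forms of lung and testis, did not pass the filter and read at most 16.5 and 22.95. Cox7a1 and Cox8b also belong to the brown fat marker list.

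The other genes of mitochondrial respiration had the same directions of median. Beside the counts given for their lists stand 7.23% of all genes at least 1.5-fold higher and 9.68% lower on chow, and 5.61% higher and 7.89% lower on Western diet. The 16 further subunits of complexes I to IV had median strain differences of 0.25 on chow and -0.52 on Western diet, with 1 gene at least 1.5-fold higher on chow and 7 at least 1.5-fold lower on Western diet. Uqcr11, a small complex III subunit, had the most negative strain by diet difference among them (-1.61), ahead of the acyl carrier protein Ndufab1 (-1.52), and Cox7a2l, a factor of supercomplex assembly, the least (-0.05). ATP synthase genes had medians of 0.15 and -0.51 over 16 genes, with 0 at least 1.5-fold higher and 1 lower on chow and 7 lower on Western diet. Atp5b, the catalytic beta subunit, read 512 on chow and 1329 on Western diet in B6 mice, against 593 and 508 in Ath29 mice, with only B6 Western far above the other arrays. Assembly factors, 34 of 40 compared, had medians of 0.19 and -0.46, with 4 at least 1.5-fold higher on chow, and 11 lower and 1 higher on Western diet. The copper chaperone Sco1 had differences of -0.02 and 0.90, while Nubpl, which delivers iron-sulfur clusters to complex I, had 0.73 and -0.57.

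Genes of the citric acid cycle and of pyruvate dehydrogenase, which supply the NADH and succinate, had medians of 0.46 and -0.56 over 16 genes, with 6 at least 1.5-fold higher on chow and 8 lower on Western diet. Dlat, the acetyltransferase of pyruvate dehydrogenase, read 588 on chow and 1609 on Western diet in B6 mice, against 1248 and 919 in Ath29 mice, and Suclg2, of succinyl-CoA synthetase, 1301, 1486, 1127 and 1058 in that order. Suclg2 was thus lower in Ath29 mice on both diets, with -0.25 and -0.48. The 72 mitochondrial ribosomal protein genes had medians of 0.17 and -0.38, with 8 at least 1.5-fold higher on chow, or 11.1%, near the share of all genes, and 1 lower, and 20 lower on Western diet, or 27.8%.

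Regulators of mitochondrial genes, 15 of 17 compared, had medians of 0.16 and -0.04, with 5 at least 1.5-fold higher on chow and 5 lower on Western diet. The nuclear receptor Ppara, which activates fatty acid oxidation genes, read 30.6 on chow and 158 on Western diet in B6 mice, against 109 and 67.4 in Ath29 mice. Ppargc1b, a coactivator of mitochondrial biogenesis, read 90.4 on chow and 302 on Western diet in B6 mice, against 250.3 and 138 in Ath29 mice. Its relative Ppargc1a, which also belongs to the brown fat list, read 138, 318, 342 and 164 in that order. These 3 regulators were thus higher in Ath29 mice on chow and higher in B6 mice on Western diet. Gabpb2, a subunit of the nuclear respiratory factor GABP, had -0.39 and 0.26.

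**Figure D5:**
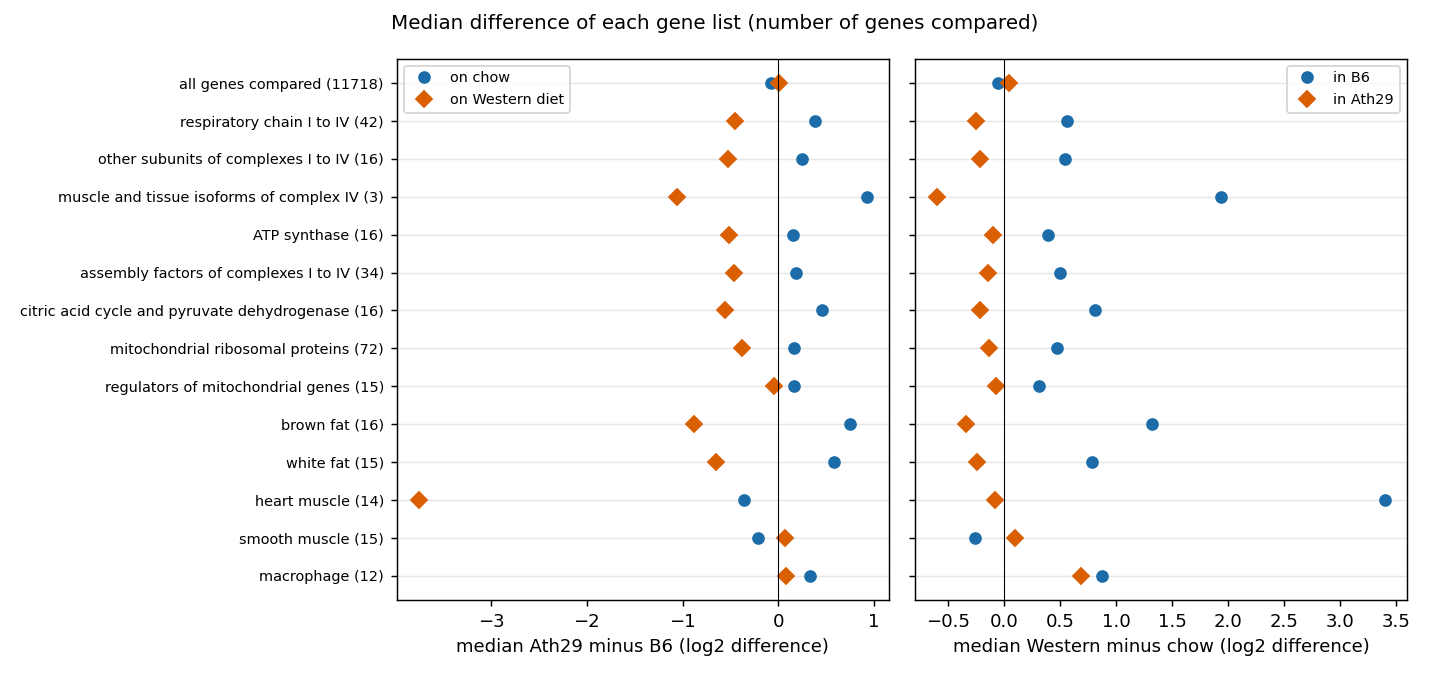
Median log2 difference of each gene list (rows, number of genes compared in brackets) between strains on each diet (left) and between diets in each strain (right). The respiratory chain genes lie at 0.39 and -0.45 on the left and 0.56 and -0.25 on the right, where heart markers reach -3.75 on the left and 3.40 on the right.

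Cox5a, Sdhd and Uqcrc1, 3 of the 42 genes, lie on chromosome 9, which carries the Ath29 locus. Their strain differences were 0.55, 0.57 and 0.54 on chow. With Western diet they were -0.37, -0.41 and -0.76. All 6 values lay within the wide range of the 39 genes of other chromosomes, -0.26 to 0.97 on chow and -1.21 to -0.03 on Western diet. The median of the 3 was 0.55 on chow, against 0.36 over the 39, and -0.41 on Western diet, against -0.46. For the strain by diet difference it was -0.98, against -0.78. An effect of the locus on these 3 genes was not tested.

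The genes outside all lists whose 4 gene-centred values lay nearest to the median profile of the 42 were Eci2, Acat1, Slc25a39, Samm50 and Timm23, with Euclidean distances of 0.03 to 0.04 log2 units over the 4 arrays. The median distance of the 42 genes themselves was 0.17 and that of all genes 0.59. Acat1, an enzyme of ketone body and isoleucine metabolism, read 3978 on chow and 6082 on Western diet in B6 mice, against 5390.0 and 4563 in Ath29 mice. Timm23, the channel of the inner membrane protein import machinery, read 3427, 5335, 4557 and 3909 in that order. Both were highest in B6 Western and lowest in B6 chow.

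Since 30 of the 42 genes had the same order of arrays, the promoters of the listed genes were searched for motifs of factors known for respiratory genes. RefSeq promoters of GRCm38.p6 were found for 36 of the 45 genes, 38 promoters in all, and the 250 bases before the start were read on both strands. The ETS core CCGGAAG, the motif of GABP and other ETS factors, was in 5 of 38, or 13.2%, against 6.91% of 32851 promoters. The 10-base NRF1 palindrome and the ERR alpha motif TCAAGGTCA were in 0 of 38, against 0.782% and 0.387% of all promoters. The NF-Y core CCAAT was in 11 of 38, or 28.9%, against 33.8%. None of these motifs contains another. The 5 promoters with the ETS core are shown as 60 bases each, 5' to 3' on the gene's strand, with the core in capitals, which reads CTTCCGG where it lies on the opposite strand:
Ndufs3 (chr2:90904722-90904781, minus strand): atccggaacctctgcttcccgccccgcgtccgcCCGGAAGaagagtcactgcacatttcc
Ndufb6 (chr4:40279612-40279671, minus strand): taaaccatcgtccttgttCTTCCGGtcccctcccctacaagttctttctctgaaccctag
Cox6b1 (chr7:30626115-30626174, minus strand): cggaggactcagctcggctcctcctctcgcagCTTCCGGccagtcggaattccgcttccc
Ndufb7 (chr8:83566698-83566757, plus strand): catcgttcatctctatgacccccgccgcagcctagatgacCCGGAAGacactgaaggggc
Sdhd (chr9:50603863-50603922, minus strand): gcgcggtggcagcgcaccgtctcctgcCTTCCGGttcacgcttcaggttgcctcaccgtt
The core began 20 bases before the start in Ndufb7 and 232 bases before it in Ndufb6. The strain by diet differences of these 5 genes were -1.01 for Ndufs3, -0.72 for Ndufb6, -0.35 for Cox6b1, -0.78 for Ndufb7 and -0.98 for Sdhd, within the range of the others. A match is a run of letters and no measure of binding.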

How the data were processed

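Biotin-labelled cRNA from 8 ug of total RNA was hybridised to Affymetrix arrays, 1 per group, per the labels' protocols. The authors deposited intensity values on a linear scale, 1 per probe set and array. The software, background correction and normalization behind the values are not stated in the labels used here. After 64 control probe sets had been left out, log2 intensities were computed, the 4 arrays were given the same median by adding a constant, and values below the 25th percentile (9.59) were raised to it. Probe sets with a mean above the median of all (27.4) were kept, and each gene was read from its single-gene probe set with the highest mean. Symbols came from the platform annotation, updated through gene identifiers. Printed intensities are as deposited, and differences and orders are of the shifted log2 values. A 1.5-fold difference was counted. With 1 array per group there is no test, and that number limits the precision. The steps were run on simulated arrays with known changes and little added noise. That checks the code and says nothing about the spread between unreplicated arrays. Named were all members of complexes II, III, IV and cytochrome c, the core of complex I, the 5 accessory subunits with the most and the 5 with the least negative strain by diet difference, up to 4 genes of each pathway list, and the 5 genes most alike. Ndufs5, Cox7a2, Cox8a, Ppargc1a, Acta2, Apoe and the probe sets singled out were chosen after their values were seen. Promoter stretches with the NRF1 motif were planned for printing. That motif was in 0 of 38 promoters, and stretches with the ETS core were printed in their place. The members and lists were chosen with earlier results of these data known. Python 3.11.15, pandas 2.3.3 and numpy 2.4.6 were used.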

Additional observations from a re-analysis of the deposited data

Results flagged for a closer look

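The strain difference had opposite signs on the 2 diets, above 0 on chow and below 0 on Western diet, for the median of the respiratory chain genes and of each complex. The strain by diet difference in log2 units was -0.82 over the 42 genes, -0.86 for complex I, -0.86 for complex II, -0.88 for complex III, -0.95 for cytochrome c and -0.54 for complex IV. Among single genes, Ndufs1 (-1.69), Ndufa9 (-1.23), Ndufa10 (-1.86), Ndufs4 (-1.61) and Uqcrq (-1.89) differed at least 1.5-fold between strains, upward on chow and downward on Western diet. Dimmer probe sets of Uqcrq and Ndufs4 gave other sizes or signs. None of these differences was tested, as each group has 1 array. Brown fat markers had a strain by diet median of -1.73, white fat markers of -1.17 and heart markers of -3.46. Smooth muscle markers had 0.35, above 0 in all 15, against 58.8% of all genes. The part of these tissues in the values was not tested.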

How the results depend on the processing

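Shifts were judged against the pooled SD between probe sets of 1 gene, 0.342 to 0.522 log2 units over 4663 genes, since no array is replicated. Under 3 other scalings, 2 other floors, 2 other filters and 3 other choices of probe set, the last of which (the dimmest passing one) was chosen after seeing the data, the medians of the 40 to 43 members compared stayed between 0.31 and 0.45 on chow, -0.63 and -0.37 on Western diet, 0.54 and 0.60 in B6, and -0.30 and -0.25 in Ath29, and the strain by diet difference stayed below 0 in every member compared. Genes at least 1.5-fold higher on chow numbered 8 with quantile normalization and 9 with a common 75th percentile (8.93% and 8.96% of all genes), which also put 1 gene at least 1.5-fold lower on Western diet in Ath29 mice (5.17%). With the mean of all probe sets, 19 genes were at least 1.5-fold lower in Ath29 than in B6 mice on Western diet, against 7.66% of all genes, and 1 was lower on Western diet than on chow in Ath29 mice, against 4.22%. For cytochrome c this choice gave -0.90 between strains on Western diet, 1.19 between diets in B6 and -1.57 for the strain by diet difference. The dimmest probe sets gave 24 genes (10.3% of all) and 2 genes (6.51%), and -1.20, 1.54 and -1.94 for cytochrome c, and turned the Western strain difference of Ndufs4 to 0.23. At 2-fold the counts were 0 higher on chow, 1 lower between strains on Western diet and 5 higher in B6, against 2.16%, 2.03% and 4.11% of all genes. With a 25% difference counted they were 24, 33 and 35, with 8 lower in Ath29 mice, against 16.6%, 18.2%, 18.9% and 12.4%. No paired analysis was possible because each group has 1 array. Leaving out an array leaves its comparisons without a value.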

Other observations

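A few mitochondrial genes went against the common direction. Atp5g2, a membrane ring subunit of ATP synthase, read 264 on chow and 263 on Western diet in B6 mice, against 138 and 167 in Ath29 mice, lower in Ath29 than in B6 mice on both diets. Atpif1, the inhibitor of ATP hydrolysis by the synthase, read 2015 on chow and 1748 on Western diet in B6 mice, against 1799 and 1790.0 in Ath29 mice and was highest in B6 chow. Sco1, a copper chaperone of complex IV, read 82.3 on chow and 73.6 on Western diet in B6 mice, against 83.5 and 137 in Ath29 mice, and only Ath29 Western stood above the other arrays. The mitochondrial ribosomal genes Mrpl23 and Mrpl49 had strain by diet differences of 0.09 and 0.18 log2 units, while Mrps18b and Mrps36 had -1.98 and -1.65.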
